A study of Macaca fascicularis with 11 samples.

Results

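Highly methylated dense runs are short stretches of the macaque genome in which many CpG cytosines measured by reduced representation bisulfite sequencing (RRBS) lie close together and carry high methylation. They were selected on the measured methylation ratios themselves. On chromosomes 1 to 20, except chromosomes 10 and 11, the listed cytosines of both strands were put in order and a new run was started wherever the gap to the next cytosine was more than 1000 bp. A run was taken as highly methylated when it had at least 10 cytosines (a dense run) and its mean ratio over all its cytosines and all animals was above 0.75, which is 75% methylation. This gave 132 runs, which is 16.8% of the 788 dense runs and a small part of the 9619 runs of any size on these chromosomes. The 132 runs held 1877 of the 42613 cytosines listed there, or 4.40%. Because the rule used the ratios, the levels of the runs are given as a description and were not tested.

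The samples were quadriceps muscle biopsies from 11 adult male Cynomolgus macaques, 1 biopsy per animal. All 11 animals form 1 group, and there is no treatment or other condition to compare. The ratios were used as deposited. The number of reads behind a single ratio is not listed, apart from a stated minimum of 10, so no counting interval is given. Whole biopsies were measured, so a difference in the mixture of cells and a difference within 1 kind of cell cannot be told apart.

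In mammals, DNA methylation is found mainly at cytosines that are followed by a guanine, and a maintenance methyltransferase copies it from the old to the new strand after each cell division. Most isolated CpGs of a somatic tissue are methylated, while dense clusters of CpGs, known as CpG islands, are mostly unmethylated, in particular at the promoters of active genes. Dense clusters with high methylation are known from gene bodies, repeated sequences, chromosome ends, the inactive X chromosome and promoters silenced in the tissue. A ratio of 0 stands for a cytosine that always read as unmethylated and a ratio of 1 for one that always read as methylated.

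Positions refer to the genome assembly of Yan et al., to which the authors had aligned their reads. A genome or gene annotation of that build was not used here, so the runs are given by position, without sequences or gene names.

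Among the dense runs, high methylation was a minority state. Low runs, chosen as the mirror image with at least 10 cytosines and a mean below 25%, numbered 555, and only 101 dense runs lay between the 2 thresholds. The plot of dense runs by mean methylation shows the large group near 0% and the broad group at the high end. Among the highly methylated runs the means were spread over the whole allowed range, with 21 runs from 75% to 80%, 29 from 80% to 85%, 29 from 85% to 90%, 31 from 90% to 95% and 22 above 95%. The lowest run mean was 75.05%, the median 86.9% and the highest 98.9%.

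**Figure D1:**
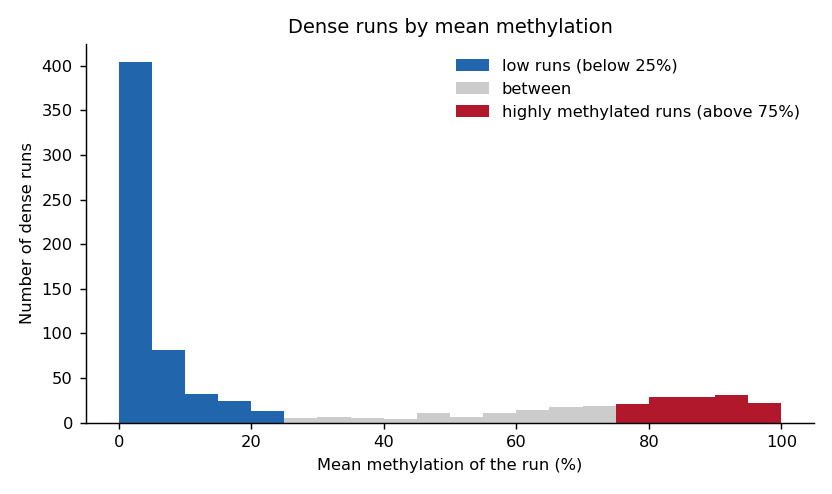
Number of dense runs (vertical axis) by their mean methylation in percent over all cytosines and 11 animals (horizontal axis, bars 5 points wide), with the 555 low runs in blue, the 101 runs between in grey and the 132 highly methylated runs in red. The low runs pile up near 0%, whereas the highly methylated runs are spread from 75% to 100%.

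The threshold fell within a continuous range of values. The 3 members just above it were chr20:88401141-88401423 with a mean of 75.05%, chr19:14249111-14249266 with 75.2% and chr5:45534136-45534191 with 75.4%. The 3 dense runs just below it were chr2:67530547-67530609 with 74.9%, chr16:78313540-78313586 with 74.2% and chr8:58902169-58902197 with 74.1%. On both sides of the threshold, each of these runs had animals above and animals below 75%. In chr20:88401141-88401423 only 5 of the 11 animals were above 75%, and in chr2:67530547-67530609, which was not a member, 6 were.

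The mean over the 132 runs was nearly equal in the 11 animals. It was 87.3% ± 0.543 (SD, n = 11), with the lowest animal at 86.3% and the highest at 88.2%. Before the other results it has to be said that 4 animals stood apart in the low runs, where their means were 6.07% to 7.04%, compared with 4.31% to 4.91% in the other 7. In the highly methylated runs the same 4 animals, numbered 2606, 2646, 5272 and 5296 in the table, lay inside the range of the others, with means of 87.4% to 87.7%. Each of the tests reported here was therefore also run without them.

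No animal was the lowest or the highest in most runs. Animal 5295 had the lowest value in 23 of the 132 runs and animal 2595 in 19, whereas animal 2606 was lowest in 2. Animal 2654 had the highest value in 21 runs and was also the lowest in 16. Ratios of exactly 1 made up 18.1% to 31.8% of the values of an animal in these runs, and ratios of exactly 0 made up 0.320% or less.

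The choice of runs held for animals that had no part in it. When the rule was applied to 10 animals, it gave 130 to 133 runs, and the share of them above 75% in the animal left out was 93.3% ± 2.38 (SD, n = 11 animals), from 89.5% to 97.7%. These 11 choices overlap, so no test was made. With all animals in the choice, 99 of the 132 runs were above 75% in every animal, 24 had 1 to 3 animals at or below it, and 9 had 4 or more.

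Most runs varied little between animals, and a few varied a great deal. The difference between the lowest and the highest animal had a median of 8.25 percentage points over the 132 runs, and it was at most 10 points in 83 runs and at most 20 points in 125. It exceeded 30 points in 4 runs. The SD over animals of a run mean had a median of 2.57 points and ranged from 0.611 to 17.7. Its median was 1.61 points in low runs, 1.87 in all dense runs and 5.25 in the runs between the thresholds. The plot of animal ranges by run shows these few runs as long lines among short ones. Runs with a lower mean varied more, with a Pearson correlation of -0.441 and a Spearman correlation of -0.548 between mean and SD across the 132 runs. This is a description over runs that share the same animals, and runs near 100% have little room to vary.

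**Figure D2:**
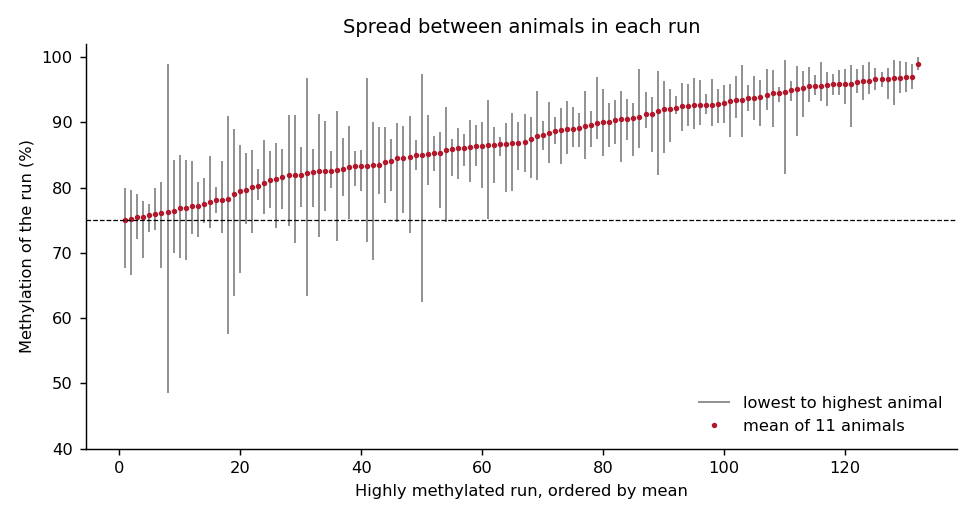
Methylation in percent (vertical axis) of the 132 highly methylated runs in order of their mean (horizontal axis), with the mean of 11 animals as a red point and the lowest to highest animal as a grey line. The dashed line is the 75% threshold, and the longest line spans 48.6% to 98.9%.

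The most variable run was chr15:105834896-105834952, with 11 cytosines on the plus strand within 57 bp. Its methylation was 48.6% in the lowest animal, 83.1% in the median animal and 98.9% in the highest, with an SD of 17.7 points, and 6 of 11 animals were above 75%. The means of its 11 cytosines lay between 74.3% and 78.3%, and over the 55 pairs of its cytosines the correlation across the 11 animals was between 0.942 and 0.993 (median 0.973), given as a description of cytosines that share the same animals. Cytosines on 1 strand within 57 bp can also lie on the same reads, so they need not be separate measurements. Several of them had the same lowest ratio of 47.8%. The nearest dense run, chr15:105853536-105853615, was 18584 bp away and was also a member, and it held still, with a mean of 92.7% and an SD of 0.808 points over the same animals.

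The next run by SD was chr7:155045049-155045083, with 62.4% in the lowest animal, 88.8% in the median and 97.4% in the highest. In chr13:133744415-133744481 the corresponding values were 57.6%, 80.4% and 90.9%. In chr4:68854892-68855123, which had 19 cytosines over 232 bp, they were 71.6%, 81.8% and 96.8%. These runs had 8 or 9 animals above the threshold and the remaining ones below it. The run chr3:38900145-38900179 spanned 63.4% to 96.8% with a median of 84.2%, and its lowest animal was 2624, whereas animal 2595 was the highest there and the lowest in chr7:155045049-155045083. The order of the animals thus differed from run to run.

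Cytosines of a run tended to move together between animals. The variance over animals of a run mean was compared with the value it would have if the cytosines of the run varied independently of each other. The ratio had a median of 1.68 in the highly methylated runs and reached 10.7 in chr15:105834896-105834952. In low runs the median was 2.19. Cytosines close together can share reads, and what lay behind this joint movement was not tested.

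The runs were small in extent. The number of cytosines had a median of 12 and a maximum of 60, and the number of different CpGs had a median of 9. The span from the first to the last cytosine had a median of 100.5 bp, with a range from 30 to 1765 bp, and 66 of the 132 runs were 100 bp long or shorter. In low runs the median span was 181 bp, with 195 of 555 runs (35.1%) of 100 bp or less. The median number of CpGs per 100 bp was 8.38 in highly methylated and 7.24 in low runs. Within the highly methylated runs, the level did not follow the extent, since the correlation of the mean with the span was -0.0919 (Spearman -0.0636) and with CpGs per 100 bp 0.0201 (Spearman 0.0531).

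Both strands were listed more often than in low runs. Only 16 of the 132 runs (12.1%) had cytosines on 1 strand alone, compared with 204 of 555 low runs (36.8%). Of the 1352 CpGs in the highly methylated runs, 525 (38.8%) had both of their cytosines listed, compared with 808 of 7005 (11.5%) in the low runs. The runs between the thresholds were like the highly methylated ones in both respects, with 9 of 101 runs (8.91%) on 1 strand and both cytosines listed for 436 of 1175 CpGs (37.1%), so that the low runs were the ones that stood out. These shares describe what the table lists and were not tested.

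Highly methylated runs were frequent near the ends of the listed part of the chromosomes. Of the 132 runs, 25 (18.9%) lay within 1 Mb of the first or last listed position of their chromosome, compared with 22 of 555 low runs (3.96%) and 63 of all 788 dense runs (7.99%). The 101 runs between the thresholds were placed much like the highly methylated ones, with 16 (15.8%) within 1 Mb. Within 5 Mb the counts were 62 (47.0%) for highly methylated runs, 40 (39.6%) for the runs between, 94 (16.9%) for low runs and 196 (24.9%) for all dense runs. Highly methylated runs occurred on all 18 chromosomes used, with 14 each on chromosomes 1 and 19 and 2 on chromosome 6. Chromosome 8 had the highest share, with 13 of its 42 dense runs (31.0%), and chromosome 6 the lowest, with 5.26% of 38. On chromosome 8, 5 of the 11 dense runs within 5 Mb of the last listed position were highly methylated, with means between 92.7% and 96.9%. These positions were not tested.

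The run with the most cytosines, chr8:149231975-149232822, belonged to this chromosome end, 1250045 bp from the last listed position. It had 60 cytosines, 29 plus-strand and 31 minus-strand ones, over 848 bp. Its methylation was 93.1% in the lowest animal, 94.7% in the median and 95.5% in the highest. It was among the steadiest runs, with an SD over animals of 0.861 points. The nearest dense run, chr8:149292819-149294534, lay 59997 bp away, had 31 cytosines over 1716 bp and was at 94.4% in the lowest, 96.3% in the median and 98.1% in the highest animal.

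Another neighbouring pair was found on chromosome 3, at a distance of 14420 bp. The run chr3:70496657-70497463 had 40 cytosines and was at 81.4% in the lowest, 88.1% in the median and 90.8% in the highest animal. The run chr3:70511883-70512669 had 39 cytosines and was at 82.5%, 85.2% and 88.0%. Both were uneven inside, since their lowest cytosines had means of 19.2% and 15.8% while their highest were at 98.8% and 99.5%. The remaining large run, chr8:18230007-18230591 with 32 cytosines, was similar, at 82.8%, 85.4% and 87.4% in the lowest, median and highest animal and with cytosines from 15.8% to 99.0%. Its nearest dense run, 220299 bp away, was a low run with a mean of 3.41%.

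The run with the highest mean was chr18:2534516-2534593, with 13 cytosines between 96.4% and 100% and animals between 98.0% and 100% (median 99.0%). A low run with a mean of 4.26% lay 17916 bp from it. The runs chr2:88514945-88515014 (lowest animal 95.04%, median 97.5%, highest 99.0%) and chr8:146506431-146506933 (94.6%, 97.3% and 99.2%) also had a low run as nearest dense run, at 45870 and 12459 bp. The run chr3:611595-611665, at 94.4%, 97.1% and 99.4%, lay near the first listed position of its chromosome, and its nearest dense run was another highly methylated one. The run chr13:51936165-51936223 had all 10 cytosines on the minus strand and was at 92.7%, 96.8% and 99.5%. The highest levels were thus found both beside low runs and away from other dense runs.

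**Figure D3:**
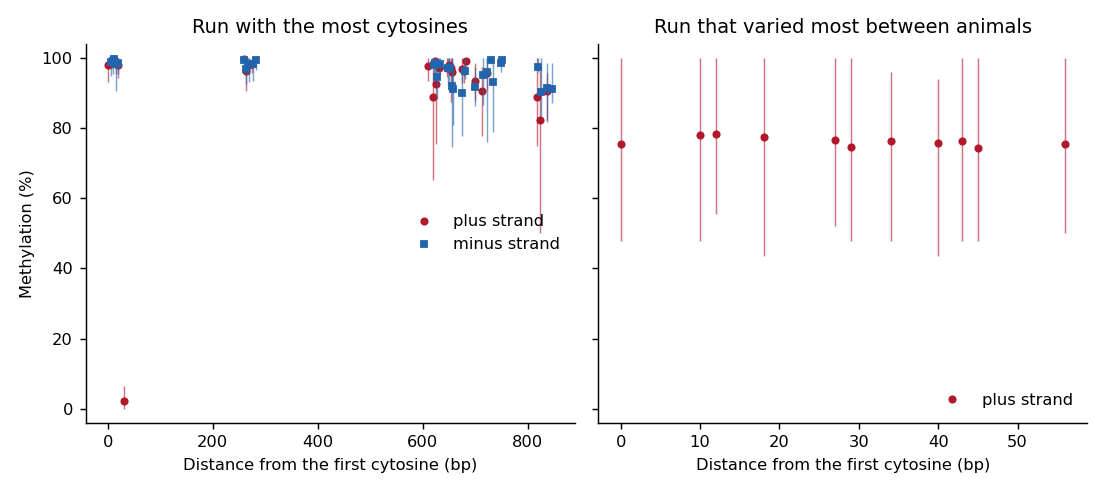
Methylation in percent (vertical axes) by distance in bp from the first cytosine (horizontal axes) in the run with 60 cytosines (left) and in the most variable run with 11 cytosines (right), with the mean of 11 animals as a point (red circle plus strand, blue square minus strand) and the lowest to highest animal as a line. On the left 1 plus-strand cytosine lies near 0% among highly methylated neighbours, and on the right all 11 cytosines have similar wide ranges.

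Inside the runs, most cytosines were close to full methylation. Of the 1877 cytosines, 1131 (60.3%) had a mean over animals above 90%, 561 lay above 70% and up to 90%, 162 (8.63%) lay from 30% to 70%, and 23 (1.23%) were below 30%. Every cytosine was above 70% in 50 of the 132 runs. In 97 runs every cytosine was above 50%. Only 2 runs had no cytosine above 90%.

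The cytosines below 30% were found in 18 of the runs. In 13 of the 23, every animal was below 30%, so the low value was shared by all animals there. The nearest cytosine on the same strand was above 70% for 17 of the 23. The other strand was listed for 6 of them, and it was above 70% for 3 and below 30% for 2. A base that differs from the assembly can also give a low ratio. Without sequences it cannot be told apart here from an unmethylated cytosine.

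The lowest cytosine was at position 642 of chromosome 2 on the plus strand, with 0.093% in the lowest animal, 0.610% in the median and 2.18% in the highest. It belonged to chr2:583-662, a run at the very start of the listed chromosome with a mean of 75.8%. The other strand of the same CpG, at position 643, was low as well, with a mean of 7.73%, while the plus-strand neighbour 8 bp away had a mean of 86.0%. In the same run, the CpG at position 658 had a plus-strand mean of 5.04% and a minus-strand mean of 96.1%, the largest strand difference of any CpG in the highly methylated runs. This run thus joined cytosines that read as unmethylated and as methylated within 80 bp in every animal, which its mean hides. The CpG at position 658 was picked out after its values were seen. A nonzero ratio as small as the 0.093% at position 642 needs far more reads than the stated minimum coverage. Whether reads from other places in the genome were aligned to this run was not tested.

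The cytosine at position 45534156 of chromosome 5, on the minus strand, had 0% in the lowest and in the median animal and 4.35% in the highest, with a mean of 1.66%. The plus strand of the same CpG had a mean of 92.0%. Its run is one of those just above the threshold, and the minus-strand neighbour 7 bp away was at 84.8%. The next lowest, at position 149232006 of chromosome 8 on the plus strand, was in the run with 60 cytosines and had 0%, 2.33% and 6.60% in the lowest, median and highest animal. Its neighbour 12 bp away on the same strand was at 98.1%, and it was the last cytosine of its stretch.

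The ratios of some single cytosines varied strongly between animals. The SD over animals of a single cytosine had a median of 5.12 points, and it was above 20 points for 38 cytosines (2.02%) in 24 runs. The largest SD, 42.7 points, was that of the plus-strand cytosine at position 2197202 of chromosome 20, which exceeded 80% in 7 animals and stayed under 20% in 3. For the minus-strand cytosine at position 3630522 of chromosome 19 the SD was 38.3 points, with 6 animals over 80% and 2 under 20%. At position 6596004 of chromosome 9, on the minus strand, the SD was 35.8 points, with 5 animals over 80% and 1 under 20%. The same-strand neighbours of these 3 cytosines, 2, 4 and 5 bp away, had means of 96.3% to 97.1% and SDs of 3.99, 6.35 and 5.54 points. Genotypes were not measured, so a base that differs between animals cannot be told apart here from a difference in methylation.

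Neighbouring cytosines of the same strand differed by an average of 9.75 ± 0.656 points (SD, n = 11 animals) when they were 1 to 5 bp apart, over 518 pairs. The difference was 10.7 ± 0.502 points at 6 to 20 bp and 11.4 ± 0.853 at 21 to 100 bp. At 101 to 1000 bp it was 23.9 ± 1.27 points, over 66 pairs. Neighbours up to 100 bp apart thus differed by similar amounts, and those at 101 to 1000 bp differed more. The pairs were pooled over runs, and the wide gaps can lie only in the longer runs. Near and far pairs of the same run were not compared. In low runs the corresponding differences were 4.21, 4.75, 5.83 and 9.22 points.

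The comparisons that follow use measures on which the runs were not chosen. Each gives 1 value per animal, and the difference was tested by a two-sided permutation test over the 11 animals in which all 2048 sign changes were counted, with Benjamini-Hochberg adjustment over 5 tests. The smallest p this allows is 0.000977. The animals were measured at the same cytosines, so such a p says that the animals share a difference at these cytosines. It does not say that other cytosines placed in the same way would show it. For that reason the spread over runs or stretches is given for the comparisons by place along a strand, place in a run and density. The comparisons of highly methylated with low runs are given without such a spread.

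The first question was whether highly methylated runs are as steady between animals as low runs. Cytosines were matched on how far the others' mean lay from the end of the scale, 100% or 0%, in bins of 5 points up to 40 points. The absolute deviation of an animal from the others' mean was 8.07 ± 0.409 points (SD, n = 11) in highly methylated runs and 9.61 ± 3.13 points in low runs. The difference of -1.55 ± 3.17 points (SD) did not pass the test (permutation test, p = 0.135, adjusted p = 0.135), and it was positive in 6 of 11 animals. The highly methylated runs had similar values in all animals (7.44 to 8.75 points), while the low runs ranged from 6.16 to 16.05 points. Far from the end of the scale the low runs held few cytosines, 25 to 42 per animal from 35 to 40 points. Of the 149 low-run CpGs listed on both strands with a mean at or above 15%, 82 lay in 1 variable run, chr20:31039260-31041121. From 10 to 15 points from the end of the scale, the values were 6.37 ± 0.381 in highly methylated and 7.72 ± 1.62 in low runs, lower in highly methylated runs in 11 of 11 animals, while in the other 7 bins highly methylated runs were the higher in 4 to 7 animals. Single bins were not tested. Leaving out animal 2666 moved the difference most, to -0.424 points, and it did not pass (permutation test, adjusted p = 0.123). Without animal 2673 it was -0.602 points and passed (adjusted p = 0.0195), as it did without animal 2595 (-1.38 points) and without animal 2634 (-0.833 points), but not with any of the other 7 left out. The difference also passed with at least 20 cytosines per run (-2.14 points, permutation test, adjusted p = 0.00732) and with chromosomes 10 and 11 (-2.68 points, adjusted p = 0.00366). It passed with an 80% threshold, where low runs were also chosen more strictly, below a ratio of 0.20 (-0.643 points, adjusted p = 0.0117). Chosen after seeing the data, it passed without the 5 most variable runs of each kind (-0.671 points, adjusted p = 0.0171). The other 12 of 16 alternatives did not pass. Among them were the strands of a CpG averaged (-0.700 points, adjusted p = 0.390) and at least 5 cytosines (-0.741 points, adjusted p = 0.144). Without the 4 animals that stood apart it was -2.61 points (adjusted p = 0.0625). It was negative in every alternative, and whether it passed depended on the setting.

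The strands of a CpG differed more in highly methylated than in low runs in the reported setting, but this depended on a few variable low runs. At the 525 CpGs with both strands listed, in 103 of the runs, the absolute difference between the strands was 10.7 ± 0.657 points (SD, n = 11) without matching, and at the 808 CpGs of low runs it was 5.60 ± 0.560 points. The test used the mean of 6 bins of equal distance from the end of the scale, which reach to 30 points and leave out CpGs farther from it, among them the one at position 658 of chromosome 2. This mean was 12.98 ± 0.881 points in highly methylated and 8.44 ± 1.69 points in low runs. The difference was 4.54 ± 1.78 points (SD), higher in 11 of 11 animals (permutation test, p = 0.000977, adjusted p = 0.00122). Of the 149 CpGs of low runs at or above 15%, 82 lay in chr20:31039260-31041121, a low run whose mean had an SD over animals of 17.2 points. When the 5 most variable runs of each kind were left out, an alternative chosen after seeing the data, the difference was 0.585 points, positive in 7 of 11 animals, and did not pass (permutation test, adjusted p = 0.245). Only 5 of the 6 bins had enough CpGs there, so this value and the 4.54 points do not cover the same bins.

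With single animals left out the size fell most for 3 of them, to 1.61 points without animal 2634 (permutation test, adjusted p = 0.00488), 1.31 points without animal 2666 (adjusted p = 0.022) and 1.04 points without animal 2673 (adjusted p = 0.0859). With these animals left out, 5 of the 6 bins had enough CpGs. With ratios of exactly 0 or 1 left out the difference was 2.72 points, and without the 4 animals that stood apart it was 5.06 points (exact permutation test, n = 7, adjusted p = 0.0195). With a threshold of 80% and low runs chosen below a ratio of 0.20 it was 1.95 points. These are 2 changes at once, and the second also removes chr20:31039260-31041121, whose mean was 23.2%.

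The difference came from the bins away from the end of the scale. In the bin closest to it, the strands differed by 3.63 ± 0.491 points in highly methylated and by 3.31 ± 0.629 points in low runs. From 15 to 20 points the values were 16.1 ± 1.05 and 9.18 ± 1.97, and from 20 to 25 points they were 18.6 ± 2.21 and 8.29 ± 2.67. From 25 to 30 points they were 21.6 ± 3.36 and 14.6 ± 5.55, and the value was higher in highly methylated runs in 9 of 11 animals. Without the 5 most variable runs of each kind, the values were 16.2 and 15.9 from 15 to 20 points and 18.5 and 16.99 from 20 to 25 points. Single bins were not tested.

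**Figure D4:**
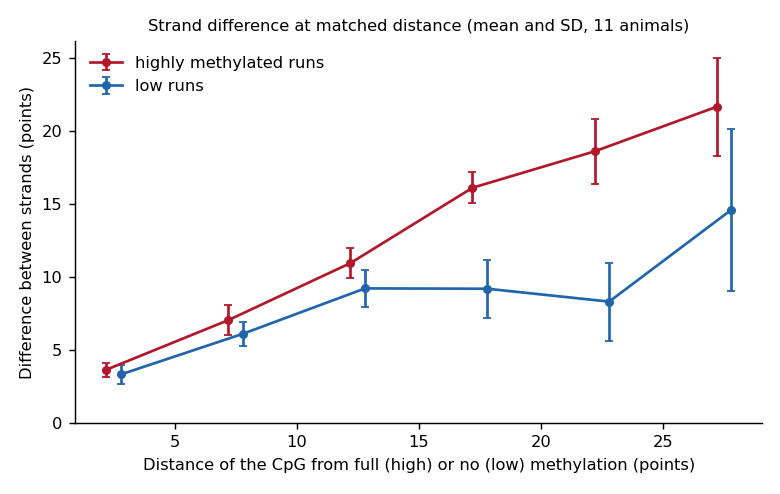
Absolute difference between the strands of a CpG in percentage points (vertical axis) by its distance in percentage points from 100% in highly methylated runs (red) or from 0% in low runs (blue) (horizontal axis, bins of 5 points), as mean and SD of 11 animals. The values start at 3.63 and 3.31 points, are 18.6 and 8.29 points in the fifth bin and 21.6 and 14.6 points in the last.

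The strand differences were not to the disadvantage of one strand of the genome. The means of the strands over animals differed by more than 20 points at 66 of the 525 CpGs (12.6%), in 37 runs, and the plus strand was the lower at 33 of them and the minus strand at 33. In low runs, whose CpGs mostly lie close to the end of the scale, 22 of 808 CpGs (2.72%) differed by as much. At these 66 CpGs the lower strand had a mean of 57.6% and the higher strand 92.7%. The lower cytosine was the last of its stretch, read from 5' to 3', at 20 CpGs and the first at 2, whereas the higher cytosine was the last at 7 and the first at 6. The lower strand was therefore more often at its 3' end, and this count was made after the strand differences had been seen.

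Along a strand, the measured methylation was lower at the 3' end of stretches. Where a cytosine lay in its read or fragment is not known here. An effect of library preparation or sequencing therefore cannot be told apart from a difference in methylation. Stretches of at least 3 cytosines on the same strand, with gaps of at most 100 bp, numbered 282 in the highly methylated runs. The 5'-most cytosine was at 88.9% ± 0.685 (SD, n = 11 animals) and the 3'-most at 84.4% ± 0.867, while the cytosines between them were at 87.3% ± 0.537. The difference between first and last was 4.43 ± 1.01 points (SD), higher at the first in 11 of 11 animals (permutation test, p = 0.000977, adjusted p = 0.00122). Without the 4 animals that stood apart it was 4.14 points (exact permutation test, n = 7, adjusted p = 0.0195), and with at least 20 cytosines per run, which left 13 runs, it was 7.86 points.

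The difference rested on a part of the stretches. The first cytosine was higher in 164 of the 282 stretches (58.2%) and lower in 118, with a median difference of 1.35 points and an SD over stretches of 20.3. The difference was more than 10 points in favour of the first cytosine in 71 stretches and in favour of the last in 27. Among first cytosines 190 were above 90%, among last cytosines 144. In low runs the first cytosine was higher as well, by a mean of 1.87 points, in 792 of 1066 stretches (74.3%), and whether the highly methylated runs differ from them in this was not tested.

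Outer cytosines, within 10% of the span from either end of a run, were slightly higher than inner ones. Over the 125 runs with both kinds, they were at 88.4% ± 0.569 (SD, n = 11 animals) and 87.2% ± 0.616. The difference of 1.21 ± 0.494 points (SD) was positive in 11 of 11 animals (permutation test, p = 0.000977, adjusted p = 0.00122). Over runs it was small against the spread, with an SD of 10.4 points and higher outer cytosines in 68 runs and lower ones in 57. With a threshold of 80% in place of 75% the sign turned, to -0.638 points (permutation test, adjusted p = 0.00122), so no order of outer and inner cytosines held for both choices. In low runs the outer cytosines were higher by 0.833 points.

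Densely placed cytosines, with more listed CpGs within 50 bp than the median of their run, were at 88.7% ± 0.531 (SD, n = 11 animals), and sparsely placed ones were at 87.1% ± 0.596, over 92 runs. The difference of 1.64 ± 0.331 points (SD) was positive in 11 of 11 animals (permutation test, p = 0.000977, adjusted p = 0.00122). It was positive in 55 runs and negative in 37, with an SD over runs of 8.27 points. The sign turned with at least 5 cytosines per run (-0.196 points), with at least 20 (-0.574 points) and with chromosomes 10 and 11 added (-0.226 points), and the adjusted p of these permutation tests was between 0.0366 and 0.0498. In the other 10 of 13 alternatives the difference was positive. It ranged there from 0.977 points with a 100 bp window to 3.17 points with the strands of a CpG averaged. The direction therefore depended on which runs were taken. In low runs the corresponding mean difference was -0.817 points.

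**Figure D5:**
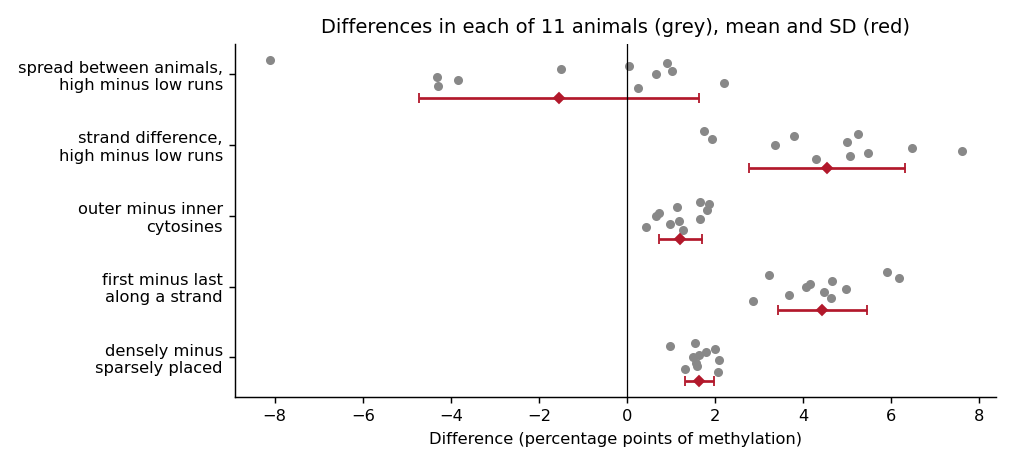
Differences in percentage points (horizontal axis) in each of the 11 animals (grey points) with their mean and SD (red) for the 5 comparisons (vertical axis). The strand difference and the difference between first and last cytosines are above 0 in 11 of 11 animals, as are the small differences by place in the run, and the spread between animals falls on both sides of 0.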

How the data were processed

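RRBS libraries of 11 muscle biopsies were made by the authors. Per the labels, 5 µg of DNA was cut with MspI and TaqαI and converted with the EZ-96 DNA Methylation-Gold Kit, whereas the study's methods give 1 µg, MspI alone and the EpiTect kit. According to these methods the authors removed bases of quality below 20 and reads below 20 bp, aligned with RRBSMAP and kept CpGs with a coverage of at least 10. The deposited values are methylation ratios, fractions from 0 to 1 for each of 61399 cytosines and 11 animals, without missing values, and they were multiplied by 100 for percent. No coverage was used here, and columns were not linked to sample numbers.

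Runs, means, SDs and tests were computed with Python 3.11.15, numpy 2.4.6, pandas 2.3.3 and scipy 1.17.1, and drawn with matplotlib 3.10.9. Matched bins needed 20 cytosines, or 10 CpGs, on both sides in every animal. Named runs are the 5 with the most cytosines, the highest mean and the largest SD, and the 3 nearest to either side of the threshold, and named cytosines are the 3 lowest and the 3 with the largest SD. Members and lists were chosen with earlier results of these data known. The calculations were tested on simulated data.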

Additional observations from a re-analysis of the deposited data

How the results depend on the processing

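The number of highly methylated runs was 784 with at least 5 cytosines per run, 13 with at least 20, 219 with chromosomes 10 and 11 and 61 with the strands of a CpG averaged. The mean level was 88.5% with at least 5 cytosines, 85.5% and 89.3% with thresholds of 70% and 80%, 86.4% with chromosomes 10 and 11, 83.9% without ratios of exactly 0 or 1, and 88.2% without cytosines below 30%. Without ratios of exactly 0 or 1, the share of runs above the threshold in the left-out animal was 85.4%. Most of these shifts follow from how the alternative redefines the runs or removes values.

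The spread between animals against low runs did not pass in the reported setting and in 12 of 16 alternatives. It passed with at least 20 cytosines (-2.14 points), with chromosomes 10 and 11 (-2.68) and without the 5 most variable runs of each class (-0.671). It also passed with an 80% threshold together with low runs chosen below a ratio of 0.20 (-0.643). Leaving out single animals gave -2.04 to -0.424 points, and for the strand difference 1.04 to 5.41 points. Without the 5 most variable runs of each class the strand difference was 0.585 points, over 5 bins instead of 6, and did not pass. The outer against inner difference turned to -0.638 points with an 80% threshold, and that by density to -0.196, -0.574 and -0.226 points with at least 5 cytosines, at least 20, and chromosomes 10 and 11. The cause was not tested. The first against last difference kept its direction and passed in all 12 alternatives (3.00 to 7.86 points) and with each of 11 animals left out (4.22 to 4.56 points).

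Leaving out cytosines below 30%, the most variable runs or the 4 animals that stood apart was chosen after seeing the data. Without these 4 animals the spread difference was -2.61 points and did not pass (exact permutation test, n = 7, adjusted p = 0.0625). The outer against inner difference was then 1.03 points and that by density 1.54 points. Depth limits single ratios to an extent not known here.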
